A study of Mus with 6 samples.

Results

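The constitutive proteasome genes were taken as the rows of the expression table whose symbol starts with Psma, Psmb, Psmc, Psmd, Psme, Psmf or Psmg followed by a digit, leaving out the immunoproteasome genes Psmb8, Psmb9 and Psmb10 and any symbol containing -ps. This rule found 47 of 20893 genes. They comprise 8 alpha and 7 beta genes of the 20S core, 6 ATPase and 14 non-ATPase genes of the 19S regulatory particle, 6 genes of activators and of an inhibitor, and 4 genes of core assembly chaperones. The remaining 2, Psmc3ip and Psme3ip1, carry the name of a partner protein and do not encode proteasome subunits, so they were kept among the 47 but out of these classes. The RNA came from cardiac microvascular endothelial cells of Ccl28 knockout (KO) mice, 3 libraries, and of wild-type (WT) mice, 3 libraries, both with replicate numbers 2, 3 and 4. In both genotypes the left coronary artery had been ligated, a surgical model of myocardial infarction, and CD45- CD31+ cells were then collected on magnetic beads. The genotype labels of KO replicates 3 and 4 name Ccl29 and Ccl30, against their titles, which were followed. Strain, sex, age, time after ligation and pooling of animals are not given in the sources used here. Whether replicates came from different animals is not stated, so the spread behind every p-value may be purely technical.

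The 26S proteasome degrades proteins tagged with ubiquitin in the cytosol and nucleus. Its barrel-shaped 20S core is built from rings of alpha subunits, which gate the entrance, and rings of beta subunits, of which Psmb5, Psmb6 and Psmb7 carry the active sites. The 19S particle caps the barrel: its ATPases unfold the substrate and open the gate, while the non-ATPase subunits bind ubiquitin, remove it and hold the particle together. In endothelium the proteasome is known for the turnover of signalling proteins, including the inhibitor of NF-kB.

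The authors deposited FPKM, a fragment count divided by transcript length and by library size. Recovered read totals were 36004457 to 37780513 in KO and 39104282 to 40500067 in WT. The targeted gene Ccl28 had 0 reads in each KO library, and 16, 11 and 24 reads in WT replicates 2, 3 and 4. Summed over 8 endothelial markers, the libraries held 3111 to 3419 FPKM in KO and 3414 to 3515 FPKM in WT, with 2 of the 8 called higher, 4 lower and none at 0 in all libraries. The leukocyte list of 12 genes summed to 254 to 377 FPKM in KO and 105 to 231 FPKM in WT, with 8 of its 10 tested genes higher and 0 lower, while Ptprc, which encodes CD45, reached at most 1.41 FPKM in KO and 1.71 FPKM in WT and was not called (adjusted p = 0.895 in limma). Erythroid and platelet genes summed to 434 to 560 FPKM in KO and 267 to 344 FPKM in WT (5 of 7 higher, 0 lower), and cardiomyocyte genes to 192.8 to 224.5 FPKM in KO and 143 to 204 FPKM in WT (1 of 6 tested higher, 1 lower). Fibroblast genes summed to 10.8 to 13 FPKM in KO and 22.7 to 25.2 FPKM in WT (5 of 5 tested lower), and mural cell genes to 237 to 369 FPKM in KO and 349 to 460 FPKM in WT (6 of 7 lower). Of all 10806 tested genes 18.3% were called higher and 25.8% lower. With a trend on transcript length removed from each library, Emcn, Egfl7, Cd68, Lyz2, C1qa, C1qb, Hba-a1, Hbb-bs, Hbb-bt and Pf4 lost their higher calls. S100a8, S100a9, Cd79a, Cd79b, Ppbp and Myl2 kept theirs. Erg, Myh6, Col1a1 and Myh11 lost their lower calls, and the other lower calls stayed. Proteasome genes are active in nearly all nucleated cells, and the part of carried-over cells in the results that follow was not tested. In bulk RNA, fewer cells of a type and less RNA per cell cannot be told apart.

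Of the 47 genes, 46 had at least 1 FPKM in all 6 libraries and were tested. The exception was Psma8, a testis-specific variant of an alpha subunit, with 18 to 30 reads per library in KO and 17 to 47 in WT. On the deposited FPKM scale most proteasome genes were higher in KO, with all 14 tested core genes called higher and 9 of 20 genes of the 19S particle. Under scaling to equal FPKM sums the core median stayed positive (0.13) and the particle median was -0.05. limma called 30 of 46 higher (65.2%) and 1 lower (Psme4) at a Benjamini-Hochberg adjusted p under 0.05 over all 10806 tested genes, against 18.3% of all tested genes called higher and 25.8% called lower. The median log2 fold change (KO over WT, computed on log2(FPKM + 1), which understates the change of low genes) was 0.28 over the members and -0.03 over all tested genes. The ranges of KO and WT values were apart for 34 members, 33 of them higher in KO (71.7%) and 1 lower, where 22.8% of all tested genes were apart as higher and 31.9% as lower. All changes were small: the ratio of mean FPKM, KO over WT, lay between 0.687 and 1.44 over the tested members, and 0 of them changed by 1 or more on the log2 scale.

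A pair of library properties moved with these values. Both split fully by genotype and cannot be told apart from it. Removing either also removes any genotype effect that follows it. First, log2 fold changes fell with transcript length across all tested genes (Spearman's rho -0.72), and proteasome transcripts are short, with a median implied length of 1446 nt against 3429 nt. With a length trend removed from each library, 3 of 46 members remained higher (6.52%, against 9.26% of all tested genes) and 0 were lower (9.42% of all). These counts are small, and whether they differ from the shares of all genes was not tested. At an unadjusted p under 0.05, limma gave 5 members higher and 0 lower on these values. Second, the FPKM values sum to more in KO (483543.4 to 512369.2) than in WT (401492.9 to 423898.5). When every library was scaled to the same FPKM sum, the median of all tested genes moved to -0.26, 2 members were higher (Psma7 and Psmb6), 4 were lower (Psmd1, Psmd2, Psme3 and Psme4), against 4.85% of all tested genes higher and 46.9% lower, and the member median of 0.02 lay 0.28 above that of all genes. With quantile normalization 21 members were called higher, of which 12 were core genes and 1 was a particle gene, where 20.4% of all tested genes were called higher.

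**Figure D1:**
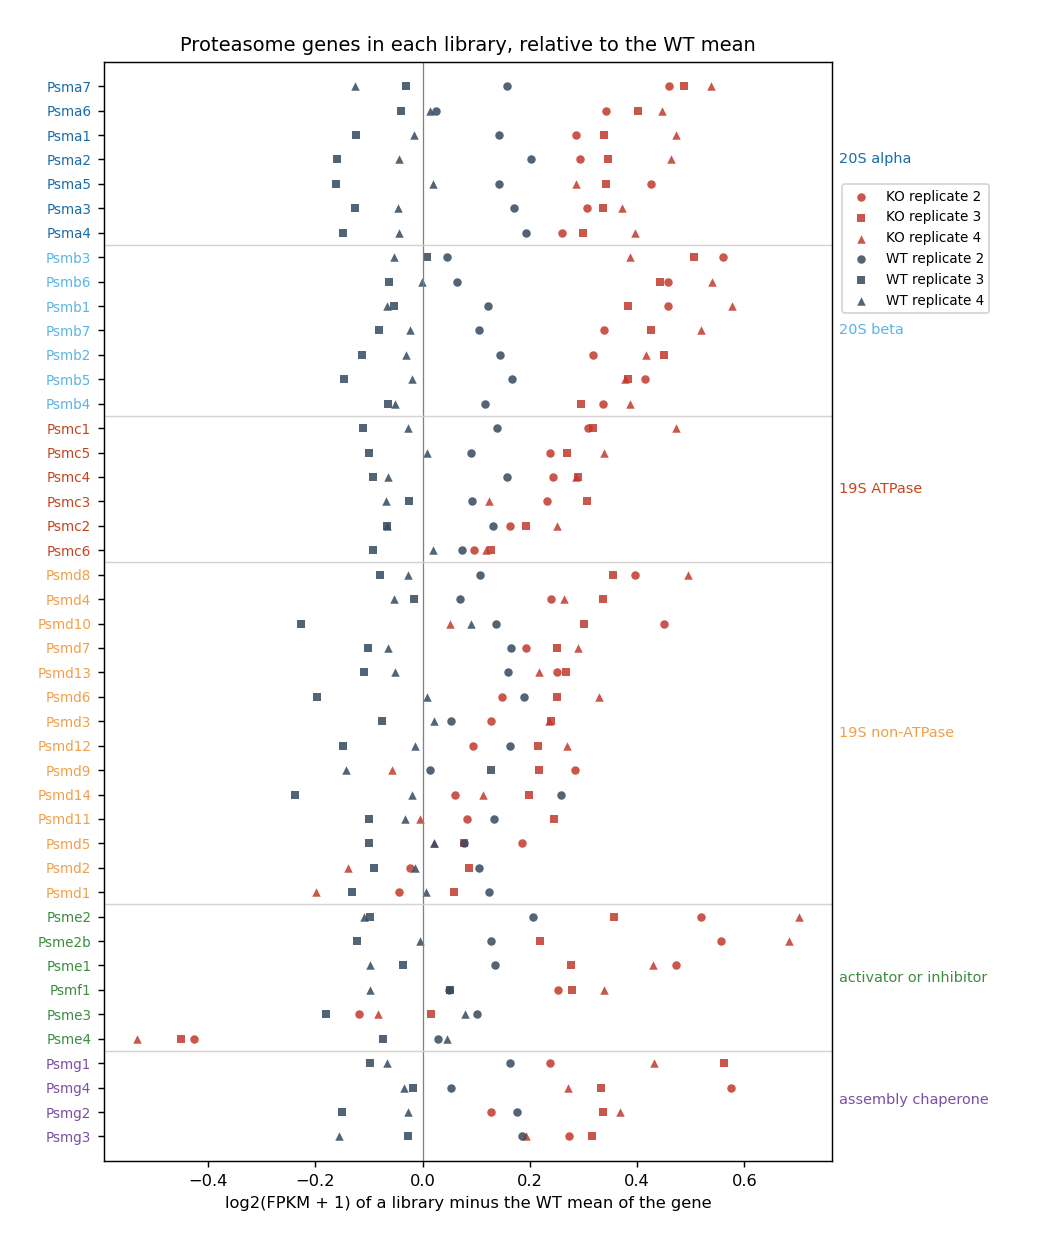
Level of 44 tested proteasome genes in each library, as log2(FPKM + 1) minus the mean of the 3 WT libraries of the same gene, with genes grouped by class and ordered by log2 fold change within a class. Red marks KO and dark blue WT, and the shape gives the replicate number. All KO values of the 14 core genes lie right of all WT values on this unscaled FPKM, most non-ATPase genes overlap, and Psme4 stands alone on the left. With libraries scaled to equal FPKM sums, 18 of the 46 tested members have a log2 fold change below 0.

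On unscaled FPKM 7 of 7 tested alpha ring genes were called higher, with log2 fold changes of 0.32 to 0.50 and a median of 0.37. Of all genes in the shortest of 5 equal length bins, 59.8% were called higher, with a median of 0.35. With equal FPKM sums the alpha median was 0.10 and 1 of 7, Psma7, was called higher. Psma7, an alpha subunit gene, had 132.9, 135.5 and 140.4 FPKM in KO replicates 2, 3 and 4, against 107.6, 94.3 and 88.3 FPKM in WT replicates 2, 3 and 4. All KO libraries exceeded all WT libraries, and the log2 fold change was 0.50 (SE 0.08, adjusted p = 0.00144 in limma). Psma6 had 128.3, 133.7 and 137.9 FPKM in KO, against 102.8, 98.2 and 102 FPKM in WT (log2 fold change 0.40, SE 0.06, adjusted p = 0.00137 in limma). The WT values of Psma6 had the smallest SD among the tested alpha genes, at 101 ± 2.47 FPKM (SD, n = 3). Psma1 had 88.1, 91.4 and 100.3 FPKM in KO, against 79.6, 66 and 71.2 FPKM in WT (log2 fold change 0.37, SE 0.09, adjusted p = 0.00755 in limma). The WT library closest to KO was replicate 2. After removal of the length trend, Psma7 was called higher (log2 fold change 0.25, adjusted p = 0.0309 in limma), while Psma6 and Psma1 had log2 fold changes of 0.03 and 0.04 and no call. With a library left out as well, Psma7 kept that call without WT replicate 2 and lost it without any one of the other libraries.

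The beta ring genes were called higher in 7 of 7 cases, with log2 fold changes of 0.34 to 0.48 and a median of 0.43, the highest class median among the core and regulatory particle classes. All 7 lie in the shortest of 5 equal length bins, where 59.8% of genes were called higher. With equal FPKM sums the beta median was 0.16 and 1 of 7, Psmb6, was called higher. Psmb6, which encodes the caspase-like active site, had 152, 150.4 and 160.8 FPKM in KO, against 115.4, 105.6 and 110.3 FPKM in WT. The groups did not overlap, at 154.4 ± 5.59 FPKM in KO and 110.4 ± 4.9 FPKM in WT (SD, n = 3 each), with a log2 fold change of 0.48 (SE 0.07, adjusted p = 0.000785 in limma). Psmb5, the chymotrypsin-like subunit that most proteasome inhibitor drugs bind, had 137, 133.9 and 133.4 FPKM in KO, against 115.1, 92.5 and 101.1 FPKM in WT (log2 fold change 0.39, SE 0.08, adjusted p = 0.00503 in limma). Psmb7, the trypsin-like subunit, had 146.5, 155.6 and 166.1 FPKM in KO, against 124.4, 109.3 and 113.7 FPKM in WT (log2 fold change 0.43, SE 0.08, adjusted p = 0.00224 in limma). The groups of all 3 catalytic genes were apart, with KO over WT ratios of mean FPKM of 1.31 to 1.40. Without the length trend their log2 fold changes were 0.12 for Psmb6, -0.04 for Psmb5 and 0.05 for Psmb7, and none of the 3 was called in limma.

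Among the structural beta genes, Psmb3 had 236, 227.5 and 209.2 FPKM in KO, against 165, 160.7 and 154 FPKM in WT (log2 fold change 0.48, SE 0.07, adjusted p = 0.000937 in limma). Psmb1 had 192, 182.3 and 208.7 FPKM in KO, against 151.9, 134.4 and 133.2 FPKM in WT (log2 fold change 0.47, SE 0.08, adjusted p = 0.00171 in limma). Neither gene's groups overlapped, and with the length trend removed Psmb3 had a log2 fold change of 0.01 and Psmb1 of 0.09, without a call. Psmb2 and Psmb4 were called higher with log2 fold changes of 0.39 and 0.34, against -0.04 and -0.07, without a call, once the length trend was removed.

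In the 19S particle the fold changes were smaller. Of the 6 ATPase genes 4 were called higher and none lower in limma, with log2 fold changes of 0.11 to 0.37 and a median of 0.25 (-0.02 with equal FPKM sums), and the groups of all 6 were apart. With quantile normalization 0 of the 6 was called in limma, and 3 were higher at an unadjusted p under 0.05. Psmc1 had 142.7, 143.7 and 160 FPKM in KO, against 126.7, 106.5 and 112.9 FPKM in WT (log2 fold change 0.37, SE 0.08, adjusted p = 0.00673 in limma). Psmc5 had 105.2, 107.6 and 113 FPKM in KO, against 95, 83.1 and 89.7 FPKM in WT (log2 fold change 0.28, SE 0.07, adjusted p = 0.0118 in limma). Psmc4 had 114.4, 118.2 and 117.8 FPKM in KO, against 107.7, 90.5 and 92.2 FPKM in WT (log2 fold change 0.27, SE 0.08, adjusted p = 0.0196 in limma). In each of these 3 genes WT replicate 2 was the highest WT library and still below all KO libraries. Psmc3 was called at a log2 fold change of 0.22, which was -0.05 with equal FPKM sums, and Psmc2 (0.20, adjusted p = 0.0538 in limma) and Psmc6 (0.11, adjusted p = 0.215 in limma) did not pass. On length-corrected values Psmc1 had a log2 fold change of 0.10, Psmc5 of -0.04 and Psmc4 of -0.01, and 0 of the 6 passed in limma, with or without adjustment. The call of Psmc4 was lost without KO replicate 4, WT replicate 3 or WT replicate 4.

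The non-ATPase genes were mixed. Of 14, 5 were called higher, none lower in limma, with log2 fold changes of -0.06 to 0.41 and a median of 0.20 (-0.07 with equal FPKM sums), and the ranges of 9 genes overlapped. Among all tested genes 18.3% were called higher and 25.8% lower. With quantile normalization 1 of the 14, Psmd8, was called. Psmd8, a lid subunit gene, had 113.9, 110.7 and 122.1 FPKM in KO, against 93, 81.7 and 84.7 FPKM in WT (log2 fold change 0.41, SE 0.07, adjusted p = 0.00217 in limma). This was the one non-ATPase gene within the 0.32 to 0.50 range of the core genes. Psmd4, which encodes a ubiquitin receptor of the particle, had 120.5, 128.9 and 122.6 FPKM in KO, against 107, 100.8 and 98.1 FPKM in WT (log2 fold change 0.28, SE 0.07, adjusted p = 0.00871 in limma). Psmd13, a lid subunit gene, had 67.1, 67.9 and 65.6 FPKM in KO, against 63, 52.1 and 54.3 FPKM in WT (log2 fold change 0.24, SE 0.08, adjusted p = 0.0328 in limma). Its call was lost when any one library but WT replicate 2 was left out, and its log2 fold change was -0.02 with equal FPKM sums. Psmd3 and Psmd7 were called at 0.20 and 0.25, and were at -0.06 and -0.02 with equal FPKM sums.

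Several central 19S genes did not pass the test. Psmd1, a large scaffold subunit of the base, had 41.1, 44.2 and 36.8 FPKM in KO, against 46.3, 38.6 and 42.6 FPKM in WT, and the groups overlapped (log2 fold change -0.06, SE 0.09, adjusted p = 0.6 in limma). Psmd2, the other large scaffold, had a log2 fold change of -0.03 with 82.8 ± 6.57 FPKM in KO and 84.3 ± 5.9 FPKM in WT (SD, n = 3 each), and of 0.02 with median-ratio scaling. Psmd14, the deubiquitinase that removes ubiquitin chains from substrates, had a log2 fold change of 0.12 with 41.7 ± 2.05 FPKM in KO and 38.5 ± 6.86 FPKM in WT (SD, n = 3 each). The lid subunit genes Psmd6, Psmd11 and Psmd12 had log2 fold changes of 0.24, 0.11 and 0.19 without a call. Psmd5, Psmd9 and Psmd10, which belong to this class by name but encode chaperones that leave the finished particle, had log2 fold changes of 0.10, 0.15 and 0.27 and were not called. Without these 3, the class median stayed at 0.20, with 5 of 11 called higher. Once the length trend was removed, 0 of 14 non-ATPase genes was called in limma and 1 was higher at an unadjusted p under 0.05, and Psmd8 had the highest log2 fold change among them, 0.15 (adjusted p = 0.082 in limma).

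The difference between the core and the regulatory particle was measured inside each library, which largely removes a factor that scales a whole library. The mean log2(FPKM + 1) of the 14 core genes exceeded that of the 20 particle genes by 1.09, 1.06 and 1.17 in KO replicates 2, 3 and 4, and by 0.91, 0.91 and 0.89 in WT replicates 2, 3 and 4. All KO libraries lay above all WT libraries, and the KO minus WT difference was 0.20 on the log2 scale. Leaving out Psmd5, Psmd9 and Psmd10, the excess was 0.80, 0.74 and 0.83 in KO and 0.59, 0.60 and 0.58 in WT. The core transcripts are also shorter, with a median implied length of 1080 nt against 1618 nt in the particle. On length-corrected values the excess was 1.03, 1.00 and 1.06 in KO and 0.98, 0.97 and 0.98 in WT, and the KO minus WT difference came to 0.05. Summed and scaled to the recovered reads of the library (RPM), the core genes took 2091.6, 2104.1 and 2196.2 in KO and 1746.9, 1508.9 and 1555.9 in WT, while the particle genes took 2550.2, 2661 and 2577.1 in KO and 2449.7, 2120.5 and 2213 in WT. WT replicate 2 was nearest to KO in both sums.

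**Figure D2:**
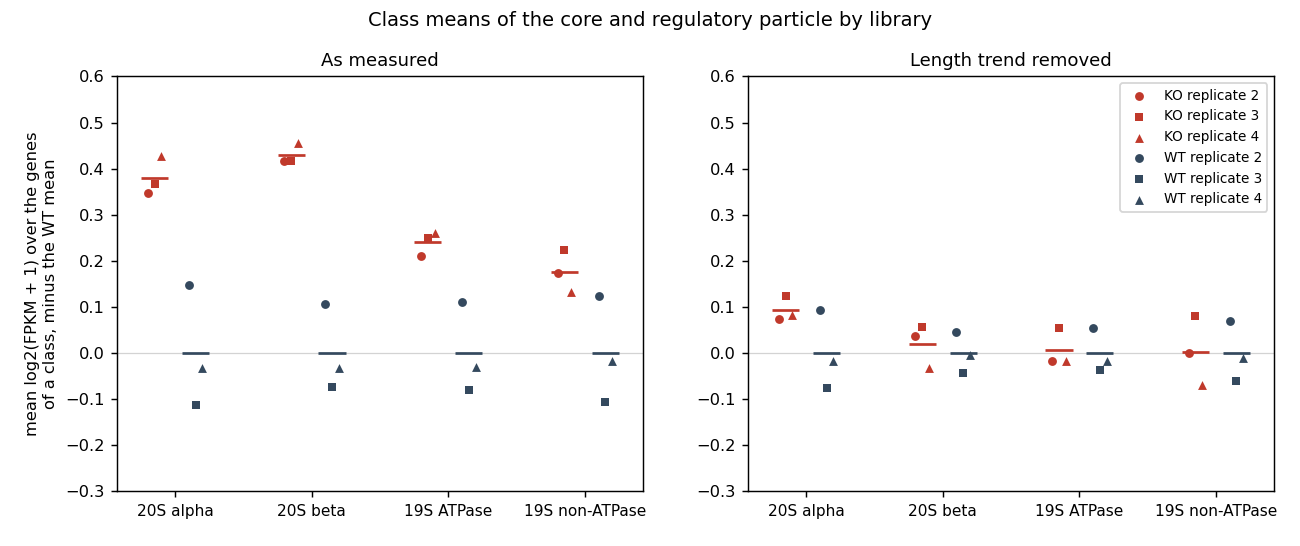
Mean log2(FPKM + 1) over the tested genes of the 20S alpha, 20S beta, 19S ATPase and 19S non-ATPase classes in each library, minus the mean of the 3 WT libraries of that class (red KO, dark blue WT, shape for the replicate number, bar for the group mean). As measured, the KO means lie 0.38, 0.43, 0.24 and 0.18 above WT in that order, and with the length trend removed 0.09, 0.02, 0.01 and 0.00.

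Within the members the log2 fold change followed implied length as well. The rank correlation (Spearman's rho) of fold change with length was -0.76 over the 46 tested members, which share the same 6 libraries and are not independent, -0.84 over the 20 particle genes and -0.29 over the 14 core genes. With the length trend removed it was 0.21 over the members, 0.35 over the particle genes and 0.63 over the core genes. When the tested genes were cut into 5 equal bins by length, 32 members fell into the shortest bin (up to 1791 nt). Of these, 27 were called higher (84.4%) with a median of 0.37, where 59.8% of all 2162 genes of that bin were called higher with a median of 0.35. In the next bin 1 of 7 members was called higher (14.3%), against 20.4% of all genes of that bin. In the bin from 2867 to 4128 nt it was 2 of 6 members (33.3%), against 7.54% of all its genes. Psma3 and Psmf1, named after their values were seen, lay off this trend. Psma3, an alpha ring gene on chromosome 12 from 70969283 to 70995877 (GRCm38, the build of mm10), had 34.5, 35.2 and 36.1 FPKM in KO, against 31.3, 25.3 and 26.8 FPKM in WT. Its implied length of 3325 nt is far above the 946 to 1591 nt of the other tested alpha genes. Its log2 fold change was 0.34 (adjusted p = 0.0107 in limma), among the 0.32 to 0.50 of the alpha ring, and 0.38 (adjusted p = 0.0108 in limma) with the length trend removed. On length-corrected values Psma3 was not called without WT replicate 4.

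The level reported for Psma3 depends on its implied length. At 35.3 ± 0.786 FPKM in KO and 27.8 ± 3.13 FPKM in WT (SD, n = 3 each) it was the lowest of the tested alpha genes per length. Its RPM values, at 114.7, 117.1 and 120 in KO and 104, 84 and 89.1 in WT, nearly matched the RPM values of Psma4, at 110.6, 113.7 and 121.6 in KO and 105.5, 83 and 89.3 in WT, whose implied length is 1263 nt. Whether the transcripts present in these cells have the length used for the FPKM was not tested. The implied lengths are those that the deposited FPKM and the recovered reads require, so every length-based value above rests on them.

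**Figure D3:**
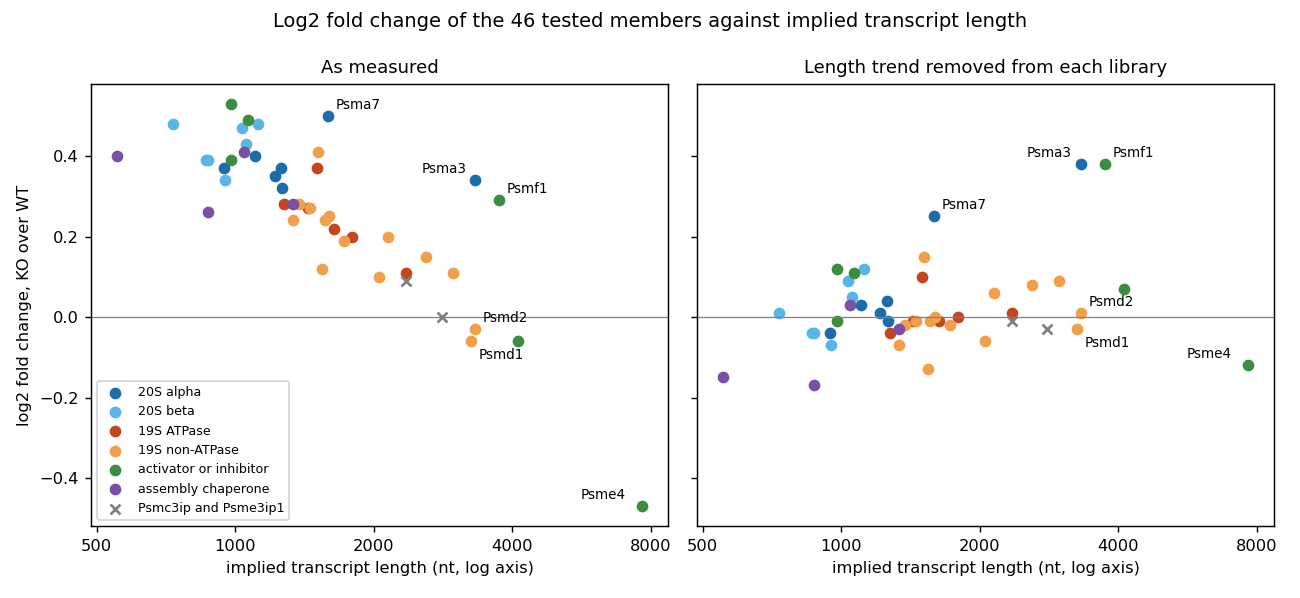
Log2 fold change, KO over WT, of the 46 tested members against implied transcript length, coloured by class, as measured (left) and with the length trend removed from each library (right). Left, values run from 0.53 at 977 nt (Psme2) to -0.47 at 7649 nt (Psme4), with Psma3 and Psmf1 above the other long members; right, 22 members are above 0 and 24 below, and Psma3, Psmf1 and Psma7 are the called members.

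Activators and the inhibitor went in both directions. Psme1 and Psme2, which encode the alpha and beta subunits of the PA28 cap, an interferon-inducible activator of peptide hydrolysis by the core, lie 5912 nt apart on chromosome 14, Psme1 from 55578494 to 55581527 and Psme2 from 55587440 to 55591101 (GRCm38). Psme2 had 176, 157.1 and 199.8 FPKM in KO, against 141.5, 114.4 and 113.5 FPKM in WT, the largest log2 fold change of the members at 0.53 (SE 0.11, adjusted p = 0.00448 in limma). Psme1 had 307.4, 268 and 298.3 FPKM in KO, against 243.1, 215.5 and 206.6 FPKM in WT (log2 fold change 0.39, SE 0.09, adjusted p = 0.00555 in limma). In both genes KO replicate 3 was the lowest KO library, while still above all WT libraries. Without the length trend Psme2 was at 0.12 and Psme1 at -0.01, without a call.

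Psme2b, a close copy of Psme2 on chromosome 11 from 48945345 to 48946410 (GRCm38), was called higher at 46.4 ± 7.58 FPKM in KO and 32.6 ± 2.88 FPKM in WT (SD, n = 3 each; log2 fold change 0.49, adjusted p = 0.00867 in limma). The span of Psme2b, 1066 nt, equals its implied length. The ratio of Psme2b to Psme2 was 0.275, 0.242 and 0.264 in KO and 0.251, 0.260 and 0.286 in WT, so the groups overlapped (exact two-sided permutation p = 0.8, where 0.1 is the smallest that 3 against 3 allow; 0.9 adjusted over 5 ratios). Reads may be split between such near-identical copies by the authors' counting, so the level of each is uncertain.

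Psme4, which encodes the large PA200 activator known for histone degradation in the nucleus, was the one member called lower on unscaled FPKM. It had 5.59, 5.48 and 5.12 FPKM in KO, against 8.03, 7.41 and 8.13 FPKM in WT, with no overlap. The log2 fold change was -0.47 (SE 0.08, adjusted p = 0.00203 in limma), and -0.12 (adjusted p = 0.259 in limma) with the length trend removed. Its transcript is the longest of the members, at 7649 nt, and in the bin of the longest tested genes 1431 of 2161 genes were called lower and 25 higher. Psme3, the nuclear PA28 gamma gene, was not called, at 16.1 ± 0.854 FPKM in KO and 16.9 ± 1.89 FPKM in WT (SD, n = 3 each). Psmf1, which encodes the PI31 proteasome regulator and has an implied length of 3751 nt, had 10.5, 10.7 and 11.2 FPKM in KO, against 8.98, 8.99 and 8.01 FPKM in WT. It was called higher at a log2 fold change of 0.29 (adjusted p = 0.017 in limma), and at 0.38 (adjusted p = 0.015 in limma) with the length trend removed. On length-corrected values Psmf1 was not called without KO replicate 4 or WT replicate 4.

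The core assembly chaperones act as a pair of dimers that guide formation of the alpha ring. Of 4, 3 were called higher, with log2 fold changes of 0.26 to 0.41 and a median of 0.34. All 4 lie in the shortest length bin, where 59.8% of genes were called higher, with a median of 0.35. With equal FPKM sums 0 of the 4 was called. Psmg4 had 35.8, 30.1 and 28.8 FPKM in KO, against 24.6, 23.4 and 23.1 FPKM in WT (log2 fold change 0.40, SE 0.09, adjusted p = 0.00616 in limma). Psmg1 had 21.2, 26.8 and 24.4 FPKM in KO, against 20.1, 16.6 and 17 FPKM in WT (log2 fold change 0.41, SE 0.10, adjusted p = 0.0108 in limma). Psmg3 had 19.2, 19.8 and 18.1 FPKM in KO, against 18, 15.4 and 14 FPKM in WT, where the lowest KO and the highest WT value almost met (log2 fold change 0.26, SE 0.10, adjusted p = 0.0488 in limma). The call of Psmg3 was lost when any one library but WT replicate 2 was left out, and with limma-voom. Psmg2 was not called (0.28, adjusted p = 0.0551 in limma). Without the length trend Psmg4 was at -0.15, Psmg1 at 0.03 and Psmg3 at -0.17, without a call. The genes of partner proteins did not pass either, with log2 fold changes of 0.00 for Psmc3ip and 0.09 for Psme3ip1.

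Levels per length differed widely between genes whose products are built into one complex. In the order of WT means the tested subunit, activator and chaperone genes ran from Psme1 (291.2 ± 20.6 FPKM in KO, 221.7 ± 19 FPKM in WT), Psmb4 (258.6 ± 8.34 in KO, 204.5 ± 14.6 in WT) and Psmb3 (224.2 ± 13.7 in KO, 159.9 ± 5.55 in WT) at the top to Psmf1 and Psme4 at the bottom (SD, n = 3 each). Psme1 and Psmb4 differed by about their spread in WT. Median levels by class were 93.3 FPKM in KO and 73.3 FPKM in WT for alpha genes, 156.1 in KO and 115.8 in WT for beta genes, 112.7 in KO and 93 in WT for ATPase genes, and 51.3 in KO and 44.9 in WT for non-ATPase genes. Below these classes lay the chaperone genes, with a median of 21.6 FPKM in KO and 16.8 FPKM in WT. Many neighbours in this order, such as Psmb7, Psmc1 and Psmb6 at 115.8 ± 7.8, 115.4 ± 10.3 and 110.4 ± 4.9 FPKM in WT (SD, n = 3), did not differ beyond their spread.

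**Figure D4:**
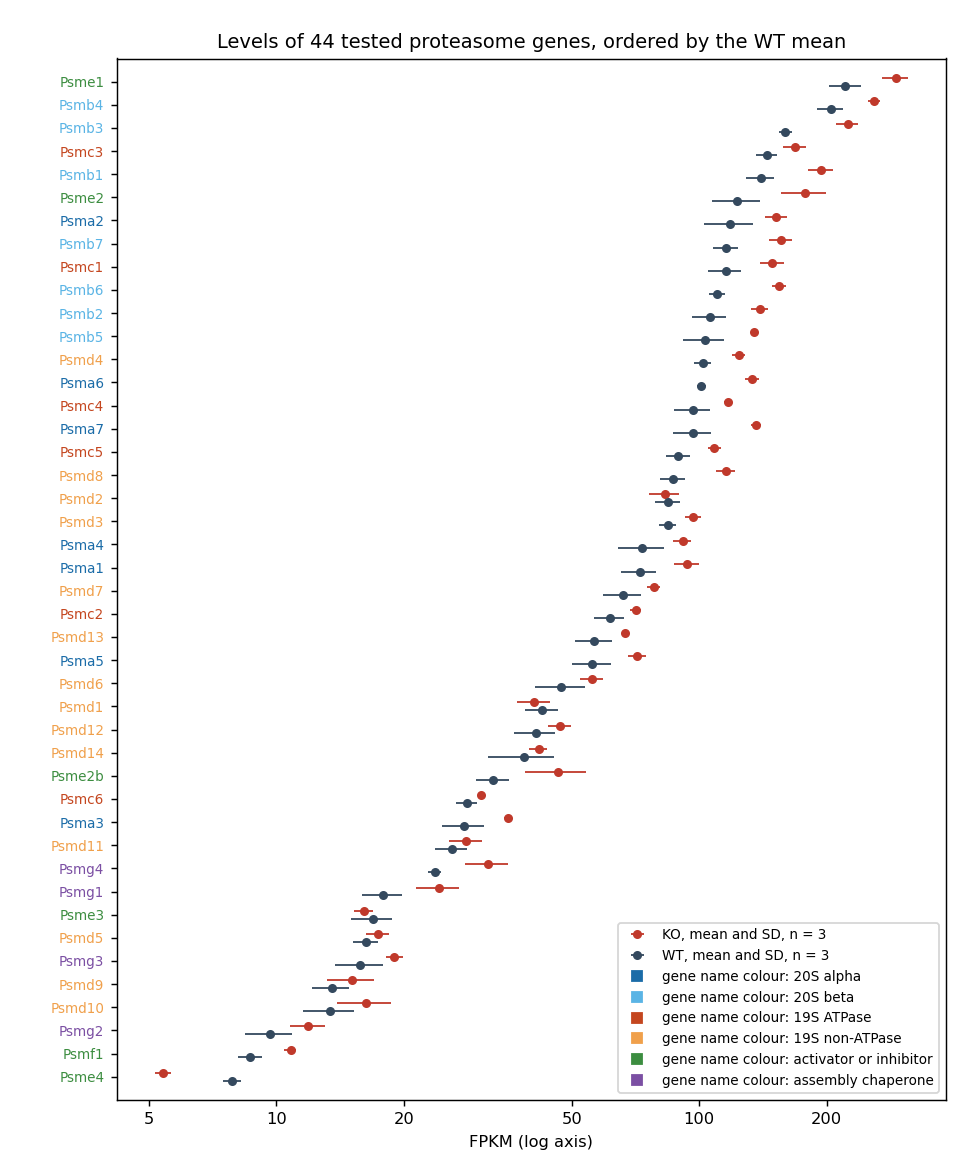
Mean FPKM with SD (n = 3 per genotype, log axis) of 44 tested proteasome genes in KO (red) and WT (dark blue), ordered from the highest WT mean at the top, with gene names coloured by class. Beta genes sit in the upper part and chaperone genes in the lower part, and KO lies right of WT on this unscaled FPKM for all but Psmd1, Psmd2, Psme3 and Psme4; with the length trend removed 24 of 46 members fall below 0.

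Among WT libraries most members had the same highest and the same lowest one. WT replicate 2 had the highest WT value for 42 of 46 tested members (91.3%), against 46.7% of all tested genes, and WT replicate 3 the lowest for 35. Among KO libraries the highest value lay in replicate 4 for 21, in replicate 3 for 15 and in replicate 2 for 10 members (45.7%, 32.6% and 21.7%), against 34.5%, 31.2% and 34.3% of all tested genes. The median coefficient of variation over the members was 5.19% in KO and 8.97% in WT, and 4.7% in WT without replicate 2, against 8.46% in KO, 8.57% in WT and 6.55% in WT without replicate 2 over all tested genes. Without WT replicate 2, 35 members were called higher and the median log2 fold change was 0.35. In that fit 1998 of the 10806 tested genes were called higher, and the median over all tested genes was -0.01. The slope on log2 length of a library's deviations from the gene means was -0.099, -0.091 and -0.155 in KO replicates 2, 3 and 4 and 0.101, 0.108 and 0.135 in WT replicates 2, 3 and 4, so WT replicate 2 did not stand apart in slope. In the authors' deposited table, made from the same libraries, 32 of 47 members were higher and 1 lower at q under 0.05, against 13.6% of 17686 genes higher and 15.7% lower.

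The immunoproteasome genes, whose products replace the catalytic subunits after interferon exposure and are abundant in leukocytes, were called higher in 3 of 3 cases. All 3 lie in the shortest of 5 equal length bins, where 59.8% of genes were called higher. With equal FPKM sums 0 of the 3 was called. Psmb8 had 221.3, 177.9 and 220.9 FPKM in KO, against 160.5, 148.8 and 132.1 FPKM in WT (log2 fold change 0.49, adjusted p = 0.0051 in limma). Psmb10 had 146.8, 108.3 and 145 FPKM in KO, against 99.6, 106.4 and 85.9 FPKM in WT, and was called at 0.44 (adjusted p = 0.0167 in limma). Psmb9 had 92.9, 69.5 and 88.2 FPKM in KO, against 69.6, 67.5 and 49.7 FPKM in WT, and was called at 0.42 (adjusted p = 0.0344 in limma) although KO replicate 3 lay just below WT replicate 2. The ratios of inducible to constitutive subunit overlapped between the groups. Psmb8 over Psmb5 was 1.615, 1.328 and 1.656 in KO and 1.395, 1.609 and 1.307 in WT (exact two-sided permutation p = 0.5). Psmb9 over Psmb6 was 0.541 ± 0.075 in KO and 0.564 ± 0.1 in WT, and Psmb10 over Psmb7 was 0.857 ± 0.154 in KO and 0.843 ± 0.115 in WT (SD, n = 3 each; exact two-sided permutation p = 0.8 and 0.9). The adjusted p was 0.9 for each over the 5 ratios, in permutation tests that cannot go below 0.1 with 3 against 3 libraries. On length-corrected values 0 of these 3 genes passed in limma, with or without adjustment.

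**Figure D5:**
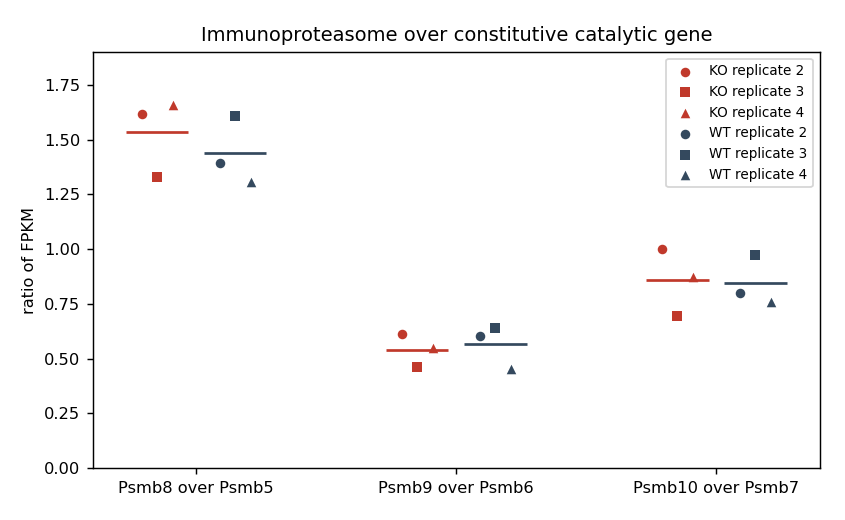
Ratio of FPKM of each inducible catalytic gene to its constitutive counterpart in the 6 libraries (red KO, dark blue WT, shape for the replicate number, bar for the group mean). KO and WT overlap in all 3 ratios, with means of 1.533 in KO and 1.437 in WT for Psmb8 over Psmb5.

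Other genes of the pathway did not share one direction. Of 36 companion genes tested, 11 were called higher (30.6%) and 8 lower, with a median log2 fold change of -0.02. Among all tested genes 18.3% were called higher and 25.8% lower. With the length trend removed 2 companion genes were higher and 0 lower, against 9.26% and 9.42% of all tested genes. With equal FPKM sums 2 were higher and 20 lower, against 4.85% and 46.9% of all tested genes. Among 10 genes of other subunits and associated proteins 3 rose and 3 fell. Sem1, a small 19S subunit gene of 491 nt, had 319.8, 321.8 and 332.9 FPKM in KO, against 252.7, 218.9 and 227.1 FPKM in WT (log2 fold change 0.48, adjusted p = 0.00114 in limma, and -0.09 with the length trend removed). Ube3a, a ubiquitin ligase gene of 16514 nt, had 1.13, 1.19 and 1.09 FPKM in KO, against 2.41, 1.85 and 2.35 FPKM in WT (log2 fold change -0.58, adjusted p = 0.00236 in limma, and -0.12 with the length trend removed). Ecpas, which encodes the Ecm29 adaptor of the proteasome, had 3.72 ± 0.0695 FPKM in KO and 5.03 ± 0.341 FPKM in WT (SD, n = 3 each; log2 fold change -0.35, adjusted p = 0.0103 in limma), and a log2 fold change of 0.10 with the length trend removed.

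Of 3 assembly factor genes tested, 2 rose. Pomp, whose product completes the core and is degraded by it, had 135.9, 141.7 and 153.7 FPKM in KO, against 123.4, 107.8 and 114.1 FPKM in WT (log2 fold change 0.32, adjusted p = 0.00912 in limma, and -0.15 with the length trend removed). Fbxo7, which encodes a partner of PI31 and has an implied length of 7088 nt, had 6.18, 5.43 and 5.38 FPKM in KO, against 4.18, 4.69 and 4.42 FPKM in WT. Its log2 fold change was 0.29 (adjusted p = 0.026 in limma), and 0.62 (adjusted p = 0.00432 in limma) with the length trend removed. Akirin2 was not called (25 ± 0.672 FPKM in KO, 25.1 ± 1.67 FPKM in WT; SD, n = 3 each).

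Regulators of proteasome gene transcription were called lower in 3 of 6 cases and higher in 0 in limma. Among all tested genes 25.8% were called lower and 18.3% higher. The 3 called, Nfe2l1, Mafg and Ddi2, had implied lengths of 5275, 9178 and 3539 nt. In their length bins 882, 1431 and 348 of 2161 genes each were called lower, in that order. Nfe2l1, the transcription factor that restores proteasome synthesis when the proteasome is inhibited, had 75.4, 76.5 and 68 FPKM in KO, against 97.7, 94.1 and 96 FPKM in WT. All KO libraries lay below all WT libraries (log2 fold change -0.39, adjusted p = 0.00222 in limma), and the log2 fold change was -0.16 (adjusted p = 0.0768 in limma) with the length trend removed. Mafg, a small Maf partner of that factor, had 4.57 ± 0.674 FPKM in KO and 6.95 ± 1.05 FPKM in WT (adjusted p = 0.00801 in limma), and Ddi2, the protease that activates Nfe2l1, had 1.97 ± 0.595 FPKM in KO and 3.14 ± 0.491 FPKM in WT (adjusted p = 0.0299 in limma; SD, n = 3 each). Neither was called with the length trend removed, at -0.11 and -0.43. Nfe2l2 and Keap1 were not called, at log2 fold changes of 0.02 and 0.01.

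Of 6 genes of ubiquitin and its activation, 3 were called higher and 1, Uba6, lower. Rps27a, which encodes ubiquitin fused to a ribosomal protein, had 704.6, 636.7 and 589.1 FPKM in KO, against 460.3, 404.5 and 334.6 FPKM in WT (log2 fold change 0.69, adjusted p = 0.00169 in limma). Its groups were apart, and with the length trend removed the log2 fold change was 0.25 (adjusted p = 0.17 in limma). Ubb, a polyubiquitin gene, had 848.6 ± 58.7 FPKM in KO and 650.3 ± 39.5 FPKM in WT (SD, n = 3 each; log2 fold change 0.38, adjusted p = 0.00612 in limma), and a log2 fold change of -0.02 with quantile normalization. Of 8 delivery genes 1, the shuttle gene Ubqln2, was called lower (14.4 ± 1.3 FPKM in KO, 18 ± 1.8 FPKM in WT; SD, n = 3 each). Its log2 fold change was -0.30, and -0.26 without a call once the length trend was removed. Vcp, the segregase that extracts substrates, did not pass (-0.22, adjusted p = 0.0674 in limma). It was called lower with quantile normalization (-0.38, adjusted p = 0.00696 in limma) and with equal FPKM sums (-0.48, adjusted p = 0.00229 in limma). These settings called 21.8% and 46.9% of all tested genes lower. On length-corrected values Vcp was at -0.18, without a call.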

How the data were processed

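RNA was measured in 6 libraries, 3 KO and 3 WT, grouped by sample title. The authors deposited FPKM per gene and library. A second table of the authors holds, per the file headers, a normalized signal per group (the mean of counts over size factors), a fold change ratio, the log2 fold change, and a p-value and q-value from DESeq2. Per the submitters' processing notes, which give no roles, the tools were featureCounts 1.6.2, HISAT2 2.1.0, Cufflinks, DESeq2 1.22.1, fastp 0.19.3, GATK 4.0.11.0 and StringTie 1.3.4d, on mm10. FPKM scales with the length assigned to a gene and with library composition.

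Solving the FPKM against the deposited group means gave read numbers (100.0% of those up to 1000 lay within 0.05 of a whole number) and an implied length per gene; 3207 genes had none. Genes with at least 1 FPKM in at least 3 libraries were tested on log2(FPKM + 1) in limma 3.58.1 under R 4.3.3, with genotype as the single term and a mean-variance trend, Benjamini-Hochberg adjusted over all 10806 genes. Length trends were loess curves (span 0.3) of each library's deviation from the gene mean. Ratios had exact permutation tests. The count-based test was limma-voom on recovered reads. All 47 members matched the RefSeq table of GRCm38.p6 by gene ID. Members and lists were chosen with earlier results of these data known. Named with all library values were the 3 members per class with the smallest p, the 2 with the lowest log2 fold change, the catalytic genes, and up to 3 genes per companion list with the smallest p, some given as mean ± SD or fold change only; other members with values were added after their values were seen. Of the companion lists, 36 of 37 symbols were found; Paaf1 was not analysed here. One gene that the naming rule selects is not reported here. Other steps used Python 3.11.15 with scipy 1.17.1, pandas 2.3.3, matplotlib 3.10.9 and numpy 2.4.6. The fits were also run on simulated reads, drawn without a built-in length trend or group shift in FPKM sums. That run therefore does not bear on either property.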

Additional observations from a re-analysis of the deposited data

How the results depend on the processing

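The 30 members called higher and 1 lower became 20 and 1 without a filter, 21 and 1 with quantile normalization, 34 and 1 with median-ratio scaling and 29 and 1 with limma-voom. Of all genes, 1362 of 20893 were called higher and 2279 lower without a filter. With the next settings, in that order, 20.4%, 22.5% and 17.3% of all tested genes were higher and 21.8%, 23.6% and 27.8% lower. Leaving out 1 library gave 22 to 35 members higher and 1 lower, the lowest without WT replicate 4. With the length trend removed 3 were higher and 0 lower (0 to 3 and 0 with 1 library left out), the member median was -0.004, the core minus particle difference was 0.05, all genes gave 1001 higher and 1018 lower (without KO replicates 2, 3 and 4 in turn 544, 764 and 409 higher and 635, 925 and 494 lower, and without WT replicates 2, 3 and 4 in turn 707, 763 and 356 higher and 755, 807 and 376 lower), and companion genes 2 and 0. The log2 fold changes of Psmb5, Psmc4, Psmc5, Psmd13, Psmd4, Psme1, Psmg3 and Psmg4 then were -0.04, -0.01, -0.04, -0.01, -0.02, -0.01, -0.17 and -0.15. Scaling to equal FPKM sums and the length trend with a library left out were chosen after seeing the data. Equal sums gave 2 members higher and 4 lower, a median of 0.024, 524 and 5073 of all genes, 2 and 20 companion genes, and -0.02 for Psmd13. Quantile normalization gave a median of 0.189, a difference of 0.145 and 6 companion genes higher. Companion genes called lower were 4 at 5 FPKM and 5 without a filter, and 6 to 12 higher and 5 to 9 lower with 1 library left out. With 1 library left out Psmd1 ranged from -0.13 without WT replicate 3 to 0.01 without KO replicate 4, and with equal sums it was -0.33 (adjusted p = 0.0243 in limma), called lower. Leaving out 1 library gave 1411 to 1998 higher and 1981 to 2681 lower of all genes. An added log2 fold change of 1 left 0 members, 0 companion genes, and 40 higher and 60 lower of all genes. The cause of these changes was not tested.

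Same-numbered KO and WT libraries deviated in opposite ways (r = -0.195, -0.349 and -0.222). With 3 libraries per group, whose deviations sum to 0, this cannot show whether the numbers pair them. With the replicate number as a block 23 members were higher, 1 lower, and 5 companion genes lower; the block with the length trend removed gave 1 and 0 members, 309 and 407 of all genes, 1 and 0 companion genes, a median of -0.004 and a difference of 0.05, with the log2 fold changes listed above. The block alone gave 8 companion genes higher, and 1542 higher and 2207 lower of all genes. Psma8, at 17 to 47 reads per library, was too shallow to be tested.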
